A study of Mus musculus with 6 samples.

Results

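C-fibre low-threshold mechanoreceptors (C-LTMRs) of the mouse lumbar dorsal root ganglion were described from 142 nuclei of a single-nucleus RNA library. They were chosen out of 1106 neuron nuclei, and these out of 4743 nuclei past the filters. The filters asked for at least 1000 unique molecular identifiers (UMIs, each a counted transcript molecule) and a mitochondrial share of at most 5%. A neuron nucleus had at least 1 UMI of 2 or more of Snap25, Syt1, Rbfox3 and Elavl3. A C-LTMR nucleus further had 2 or more of Th, Slc17a8, Cdh9 and Tafa4, called the positive genes here, and no UMI of Mrgprd, Mrgpra3, Il31ra, Nppb or Trpm8, which mark other unmyelinated sensory neurons. The nuclei were thus chosen by measured values, so every level set against other neurons is a description and carries no test.

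The series holds 57597 cells in 6 libraries, 5 of them from sciatic nerve at ages from birth to adulthood and 1 from ganglia at postnatal day 14. The ganglion library pooled lumbar ganglia of 8 C57BL/6 mice, labelled as 4 males and 4 females with no treatment named, and the study made it to look for receptor components for semaphorin 3B on unmyelinated axons while axons are sorted into Remak bundles. With 1 pooled library, animals cannot be told apart and there is no replicate. The title calls the sample cells, whereas the molecule label and the design text speak of nuclei, and the label gives the cell type as neuron although 3637 of the 4743 nuclei did not pass the neuron genes.

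C-LTMRs are unmyelinated sensory neurons that end around hair follicles and respond to gentle stroking of the skin. They are known for expressing tyrosine hydroxylase (Th), the first enzyme of catecholamine synthesis, and the vesicular glutamate transporter VGLUT3 (Slc17a8), and for secreting the chemokine-like protein TAFA4. Their axons run in Remak bundles, in which a nonmyelinating Schwann cell wraps many thin axons.

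The promoter window of Th is shown because Th names these neurons among ganglion cells and a cAMP response element is known in its promoter. RefSeq (GRCm38.p6) held 5 windows for the 4 genes, and the 250 bases before each start were searched on both strands for the RUNX core (TGTGGT or TGCGGT) and for the cAMP response element TGACGTCA. The Th window, chr7:142899996-142900245 on the minus strand, is written 5′ to 3′ with the cAMP response element in capitals.
Th: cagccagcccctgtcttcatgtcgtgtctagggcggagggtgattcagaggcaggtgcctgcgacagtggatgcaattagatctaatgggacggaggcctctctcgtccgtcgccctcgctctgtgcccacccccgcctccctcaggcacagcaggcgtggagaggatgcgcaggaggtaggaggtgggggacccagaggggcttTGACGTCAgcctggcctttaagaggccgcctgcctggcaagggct
The element began 45 bases before the start, and 1.55% of all 32851 windows of this length held it. None of the other 4 windows held it. The RUNX core was in none of the 5 windows and in 18.6% of all windows, which says only that these letters are not in these windows.

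Members were deep nuclei. Their median was 11321 UMIs, with a range from 1004 to 46019, against 6515 in the 964 other neuron nuclei. For each member, 3 other neuron nuclei of the nearest depth were therefore taken, and these 426 matched nuclei had a median of 11344 UMIs. Members made up 12.8% of neuron nuclei (exact 95% interval 10.92 to 14.96). This and all other intervals cover counting error only. Of the ganglion barcodes, 75 also occurred in a nerve library, and 2 of these belonged to members, both shared with the youngest nerve library.

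The transcripts of the sex chromosomes went against the label of a mixed pool. Xist, the RNA of the inactive X chromosome, had 3 UMIs in all 5871 ganglion barcodes, whereas 55.0% of them had a UMI of the Y-linked genes Kdm5d, Uty, Ddx3y or Eif2s3y. Xist was counted in the nerve library of day 7, which has the same gene list, with 90086 UMIs in 8298 of 11346 barcodes. No member had Xist, 120 of 142 had a Y-linked UMI, and 22 had neither. The cause was not tested.

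Among the positive genes, Tafa4 was found in 141 of 142 members, Cdh9 in 132, Th in 71 and Slc17a8 in 57. The pair of Cdh9, a cell adhesion cadherin, with Tafa4 alone admitted 53 members, while 38 held all 4 genes and 41 held 3. Non-neuron nuclei, those with fewer than 2 of the neuron genes, had a median of 2124 UMIs. They showed Tafa4 in 3.41%, Cdh9 in 1.68%, Th in 0.632% and Slc17a8 in 0.440% of nuclei. Syt1 reached 55 UMIs in a nucleus of this set, so it may hold neurons and these shares are no neuron-free baseline. With every nucleus thinned to 1000 UMIs, Th was seen in 12.0% of members and 0.934% of other neurons, and Slc17a8 in 5.63% and 0.622%. A member without a Th or Slc17a8 UMI thus cannot be called free of it at this depth.

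Each positive gene was also measured in nuclei that the other 3 had chosen. Levels are given as CPM, the UMIs of a gene over all UMIs of the summed nuclei, scaled to 1000000 UMIs. Th was at 83.4 CPM in 135 such nuclei and at 11.0 CPM in the other neurons, a ratio of 7.56 (5.83 to 9.84). The ratio was 11.1 (7.92 to 15.9) for Slc17a8, 11.8 (10.8 to 12.9) for Cdh9 and 13.1 (12.2 to 14.1) for Tafa4. All 4 genes were therefore higher where the other 3 were found, although these values come from the same nuclei.

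Members just inside the threshold differed from the rest. The 63 members with 2 positive genes had a median depth of 6681 UMIs, against 11750 for 41 members with 3 genes and 19597 for 38 members with 4. Just outside, 104 neurons had 1 positive gene and none of the excluded genes. Kcnd3, the potassium channel Kv4.3, was at 3526 CPM with 4 positive genes, 3194 CPM with 3, 1163 CPM with 2 and 300.3 CPM with 1. A further 77 neurons had 2 or more positive genes and also an excluded gene, which was Mrgprd in 55 of them, and in 28 of the 77 the excluded genes together gave a single UMI.

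Neuron nuclei were then clustered without the genes of the rule. Of the members, 110 lay in a single cluster of 144 nuclei (77.5%, 69.7 to 84.0), called the main cluster here. It held all 79 members with 3 or 4 positive genes and 31 with 2. Its leading genes were Cacna1i, Hcrtr2, Tmem132cos, Kcnj6, Tmem132c, Dgkk, Plppr1, Sema3e, Adamts9 and Cdh10. The 31 were near the 79 in Adamts9 (550 and 531 CPM) and Cdh10 (665 and 744 CPM) but lower in Fat3 (1046 and 1466 CPM). The cluster's other 34 nuclei had 1523 CPM of Tafa4 and 1078 CPM of Fat3, beside 1510 and 1420 CPM in its members. They stayed among the other neurons, from which the matched set was drawn. A second cluster of 175 nuclei held 21 members (14.8%), all with 2 positive genes, and the remaining 11 lay in 7 others.

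The 21 members of the second cluster went against their label. Their summed UMIs held 0 of Nrp1, which with a limit of 3 counts allows up to 10.8 CPM, against 650.1 CPM in the main cluster. Zfp521, a zinc finger transcription factor, was at 3.61 CPM in them and at 1695 CPM in the main cluster. Kcnd3 was at 466 and 3329 CPM, so these 21 took part in its lower level in members with 2 positive genes. Lpar3, a lysophosphatidic acid receptor known from Mrgprd neurons, was at 238 CPM in them, at 318 CPM in the cluster's other nuclei and at 5.31 CPM in members of the main cluster. Prkcq, a protein kinase C, followed the same order with 278, 343 and 5.31 CPM. Their positive UMIs were of Cdh9 (162 CPM) and Tafa4 (188 CPM), beside 100.1 and 143 CPM in the cluster's other nuclei. These 21 nuclei are kept as members by the rule. Of 88 named or listed genes at least 2-fold lower in members, 56 were lower by more than a further 1.5-fold in members of the main cluster alone, so the members' levels of such genes come in part from the 32 members outside it. None of the 57 genes at least 2-fold higher was lower by that much in members of the main cluster. A 1.5-fold rise was not possible, because these members hold most of the members' UMIs. Cacna1i, with all of its 139 UMIs in them, rose only from 72.7 to 92.2 CPM.

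**Figure D1:**
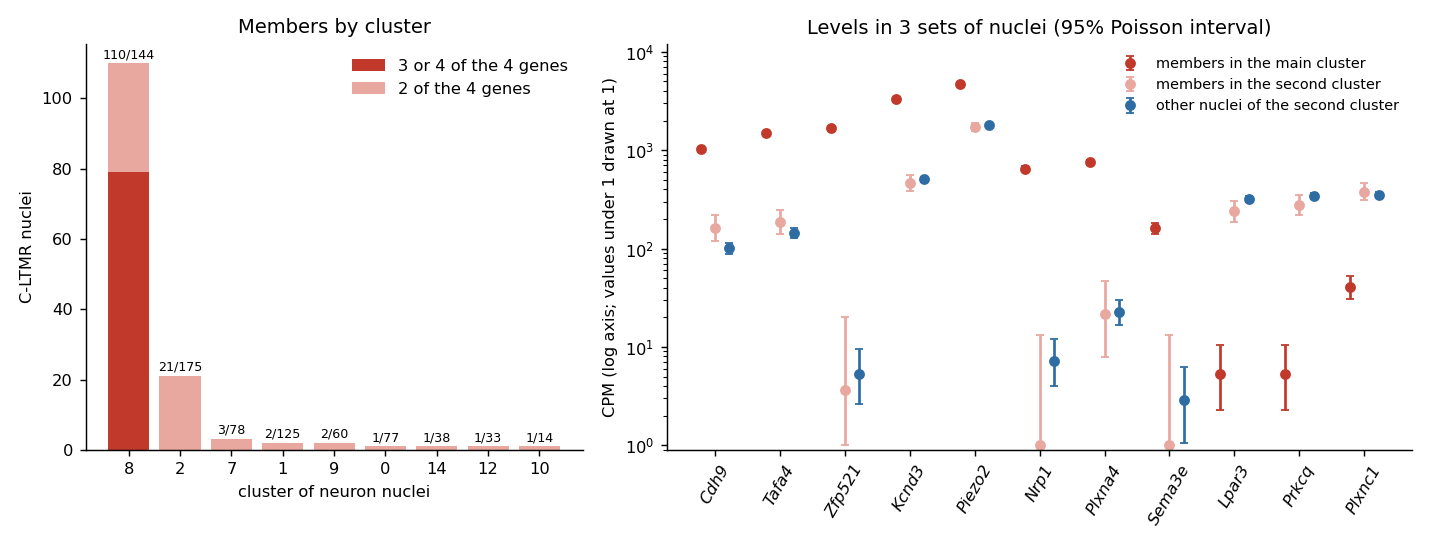
C-LTMR nuclei by cluster of neuron nuclei (left, bars split by the number of positive genes found, with members over all nuclei of the cluster above each bar) and CPM of 11 genes in members of the main cluster, members of the second cluster and the second cluster's other nuclei (right, log axis, 95% Poisson intervals). The main cluster holds 110 members, and in the second cluster Lpar3 was at 238 CPM in the 21 members and 318 CPM in the other nuclei, with Zfp521 at 3.61 and 5.29 CPM.

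Genes known for C-LTMRs but not used by the rule were mostly higher in members than in the matched neurons. Of all 6605 genes that passed a mean level of 20 CPM over both sets, 5.01% (331 genes) were at least 2-fold higher in members and 8.18% (540 genes) at least 2-fold lower, and the median log2 ratio was -0.10. Every list count below is to be read beside these shares. Of 15 listed C-LTMR genes, 13 passed that level, 7 of them were at least 2-fold higher and 1 was at least 2-fold lower, with a median log2 ratio of 1.65. In members of the main cluster alone, 14 passed, 8 were higher and 3 lower. The list was chosen with results of these nuclei known, so its count is no independent support for the label.

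Zfp521 was at 1354 CPM in members and 174 CPM in matched neurons, a ratio of 7.80 (7.24 to 8.40). Per nucleus it ranged from 0 to 97 UMIs with a median of 9 in members. In matched neurons it ranged from 0 to 64 with a median of 0. Single nuclei thus overlapped, although the matched neurons could include non-members of the main cluster. Among the other classes, cold-type nuclei came nearest with 589 CPM, and Mrgprd-type nuclei were at 47.5 CPM. Classes were set by similar rules from marker genes and held 78 Mrgprd-type, 172 itch-type, 101 cold-type, 172 peptidergic-type and 23 large-fibre-type nuclei, the last with a median of 2249 UMIs.

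Piezo2, the mechanically gated channel of light touch, was at 3979.6 CPM in members against 1161 CPM, a ratio of 3.43 (3.32 to 3.55). It was found in 140 of 142 members, with 0 to 247 UMIs and a median of 33.5. Large-fibre-type nuclei were at 1745 CPM and Mrgprd-type nuclei at 1618 CPM, and cold-type nuclei were lowest at 487 CPM. Every class was thus below the members in Piezo2, and every class also contained it.

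Pou4f2, a POU-domain transcription factor, was 10.3-fold higher (6.35 to 17.4) at 40.8 CPM, from 78 UMIs in 49 members. Gfra2, the neurturin co-receptor, was at 324 CPM in members and 103 CPM in matched neurons (ratio 3.13, 2.79 to 3.52). Mrgprd-type nuclei had 248 CPM of Gfra2 and the itch-type 14.7 CPM, so the Mrgprd-type came within 1.31-fold (1.12 to 1.53) of members. P2ry1, a purine receptor gene on the list, stayed under the level filter but had 67 UMIs in members and 25 in matched neurons (ratio 7.79, 4.85 to 12.9). The microvillus myosin gene Myo1a had a ratio of 4.36 and the T-type calcium channel Cacna1h of 3.83.

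Ret, the GDNF family receptor kinase, and Runx1, the runt factor of unmyelinated neurons, were less than 2-fold higher (1.44 and 1.33). Runx1 was at 549 CPM in members, 598 CPM in Mrgprd-type and 486 CPM in cold-type nuclei, so members did not have the highest level. Scn10a, the sodium channel Nav1.8 of nociceptors, was lower at 582 against 1051 CPM (0.553, 0.518 to 0.590). Tafa1 was lower at a ratio of 0.25 on the linear scale, and 54.2% of its UMIs in members came from 1 nucleus.

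**Figure D2:**
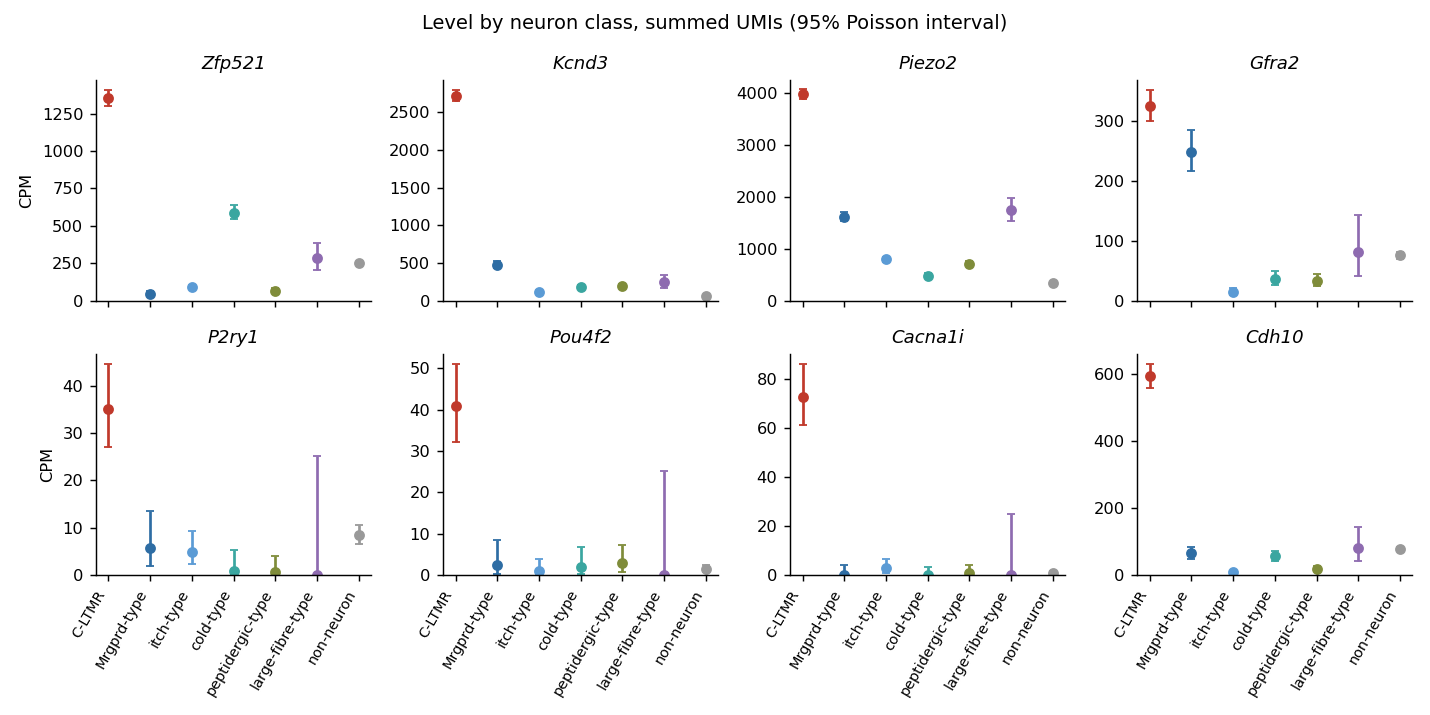
CPM of 8 genes outside the rule in the 6 neuron classes and in non-neuron nuclei, each point a sum over nuclei of 1 library with its 95% Poisson interval on an axis from 0. Members were highest in all 8 panels, with Gfra2 nearest in Mrgprd-type (248 CPM) and Zfp521 nearest in cold-type nuclei (589 CPM).

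The highest ratio was that of Cacna1i, the T-type calcium channel Cav3.3. It had 139 UMIs in members and 14 in matched neurons, or 72.7 against 2.52 CPM (ratio 28.9, 16.6 to 54.2). All 139 of these UMIs came from members of the main cluster, and the Mrgprd-type, cold-type and large-fibre-type nuclei had 0. Hcrtr2, the orexin receptor 2, was at 158 against 9.36 CPM (16.9, 12.5 to 23.1). Sema3e, a secreted class 3 semaphorin, was at 132 against 8.28 CPM (16.0, 11.6 to 22.4), and large-fibre-type nuclei were next at 54.3 CPM. Kcnj6, the G protein-gated potassium channel GIRK2, was at 117 against 7.92 CPM (14.8, 10.7 to 20.9).

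The other genes of the 15 with the highest lower bounds had ratios from 8.48 to 18.6. They were the transmembrane gene Tmem132c and its opposite-strand transcript Tmem132cos, the metalloprotease Adamts9, the diacylglycerol kinase Dgkk, Samd5, Prrt4, the phospholipid phosphatase-related Plppr1, Ttc29, the cadherin Cdh10, the atypical cadherin Fat3 and Malrd1. Tmem132c and Tmem132cos overlap, and no source used here says whether strand was counted, so their UMIs cannot be told apart. In Sema3e, Tmem132c, Plppr1, Fat3 and Malrd1, other annotated genes overlap on the same strand. Hcrtr2, Adamts9, Kcnj6 and Samd5 have overlaps on the other strand. For each of these 15 genes, the ratio of members to each of the 5 other classes had an interval above 1. The 15 genes were picked in these same nuclei for their high bounds over matched neurons. Matched neurons and the other classes both came from the other neuron nuclei. These intervals are thus not independent of that choice and give no separate support.

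Some of the genes with the lowest ratios were highest in itch-type nuclei. Htr1f, a serotonin receptor, was at 15.2 CPM in members and 1118 CPM in matched neurons, and itch-type nuclei had 4673 CPM. Osmr, the oncostatin M receptor, had 2 UMIs in members and 510 in matched neurons. Pde4c, Ptprk, Cysltr2 and Tiam1 were likewise highest in itch-type nuclei. The matched set contained itch-type nuclei, and their part in these ratios was not tested.

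Oprm1, the mu opioid receptor, was at 17.3 against 239.5 CPM (0.072, 0.049 to 0.102), with cold-type nuclei at 443 CPM, itch-type at 349.8 CPM and peptidergic-type at 292 CPM. The 33 UMIs of Oprm1 in members came from 17 nuclei, and 24.2% from one of them. Cntnap4, a contactin-associated protein, was at 48.6 against 471 CPM. Of its 93 UMIs in members 65 came from the second cluster, and members of the main cluster were at 7.30 CPM. Bcl11a, a zinc finger factor, was at 3.14 against 69.1 CPM. Etv1, an ETS factor, Kcnq3, an M-current channel, Agtr1b, an angiotensin receptor, Cracd, Csmd3 and the calcium channel subunit Cacnb2 made up the 15. Of the 27 UMIs of Cacnb2 in members 15 came from the 11 members outside both clusters, as did 16 of the 20 of Csmd3.

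**Figure D3:**
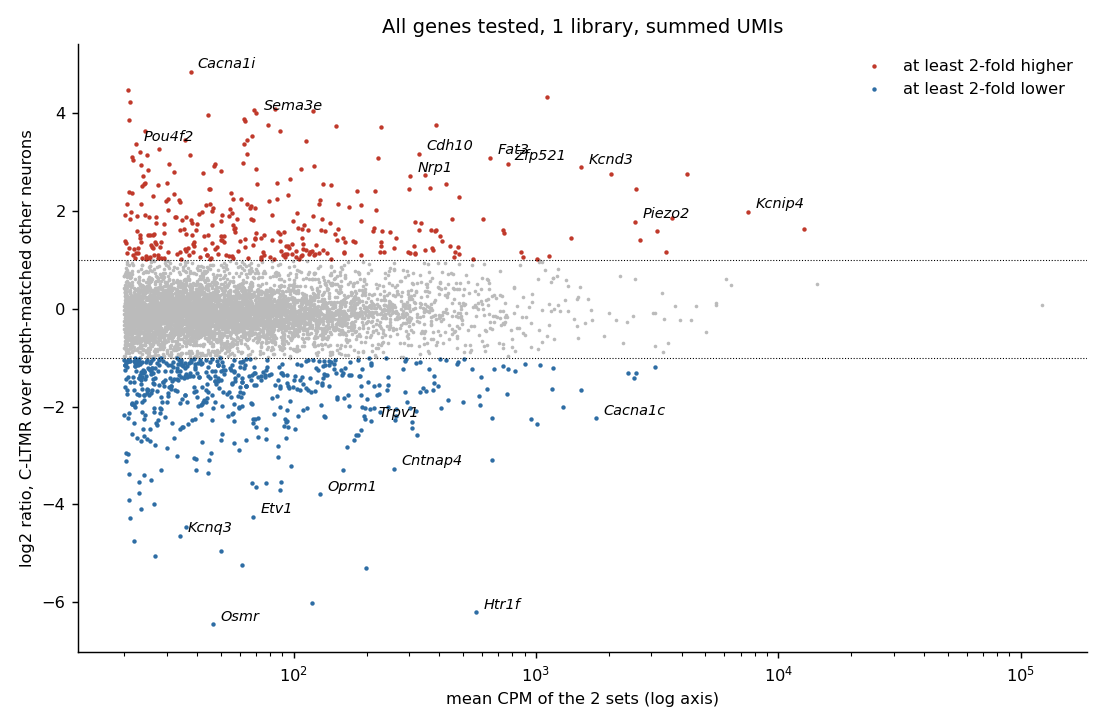
Log2 ratio of CPM in C-LTMR nuclei to depth-matched other neurons against the mean CPM of both sets (log axis) for the genes tested. Red points are at least 2-fold higher (331 genes), blue points at least 2-fold lower (540 genes), and named points run from Cacna1i at the top to Osmr at the bottom.

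Genes of catecholamine handling beyond Th summed to 158 CPM in members and 139 CPM in matched neurons, and 7 of 14 had 0 UMIs in members. Of 14 listed genes, 2 passed the level filter, 1 was higher and none was lower by 2-fold. Ddc, which makes dopamine from the product of tyrosine hydroxylase, had 0 UMIs in members, as did Dbh, Pnmt, Gch1, Slc6a2, Slc6a3 and Maob. Only 10 of the 14 genes had a UMI in members or matched neurons, so some of these were at 0 in both sets. With a limit of 3 counts, a count of 0 here allows up to 1.57 CPM. Slc18a2, the vesicular monoamine transporter, had 17 UMIs (8.89 CPM against 13.0 CPM in matched neurons). Maoa, a monoamine oxidase, was at 66.9 against 30.6 CPM, a ratio of 2.19 (1.73 to 2.77).

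Glutamate genes were mixed. Of 25 listed genes, 16 passed the level filter, 3 were higher and 4 lower (all genes tested: 5.01% and 8.18%), with a median log2 ratio of 0.03. Slc17a6, the transporter VGLUT2 of most sensory neurons, was at 87.3 CPM in members and 66.9 CPM in matched neurons (1.30, 1.08 to 1.57). Slc17a6 was found in 85 members and Slc17a8 in 57, and nuclei with both were not counted. The kainate receptor gene Grik3 (4.63), the AMPA receptor gene Gria3 (2.67) and the metabotropic receptor Grm8 (2.36) were higher. Grik3 was at 205 CPM in non-neuron nuclei against 49.2 CPM in members, and the part of their RNA in that ratio was not tested. Grik2 (0.319), Grin3a (0.364), Grm7 (0.374) and Gria4 (0.428) were lower, all on the linear scale.

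Ion channel genes were called in both directions. The A-type potassium current is formed by Kv4 channels with KChIP and DPP subunits, and its genes were among the highest ratios of the potassium channel list. Kcnd3 was at 2715 against 365 CPM (7.44, 7.07 to 7.84), and Kcnd2, the gene of Kv4.2, at 227 against 38.7 CPM (5.87, 4.97 to 6.94). The auxiliary genes Kcnip4 (3.97, 3.89 to 4.05), Dpp10 (3.61, 3.51 to 3.72) and Kcnip2 (2.05, 1.67 to 2.51) were also higher, whereas Kcnip1 (0.424) was lower and Dpp6 near equal (0.832). In members of the main cluster alone the ratio of Kcnip2 was 1.92.

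Per nucleus, Kcnd3 ranged from 0 to 179 UMIs with a median of 20.5 in members and from 0 to 146 with a median of 1 in matched neurons. Kcnip4 ranged from 0 to 801 with a median of 82.5, against a median of 12. Both genes overlap others in the annotation, and the lower and upper ends of the sets overlapped. The M-current genes Kcnq3 (0.040) and Kcnq5 (0.167), the sodium-activated Kcnt2 (0.085) and the calcium-activated Kcnn2 (0.249) were lower. Of 36 listed genes, 30 passed the level filter, 6 were higher and 7 lower (all genes tested: 5.01% and 8.18%), with a median log2 ratio of 0.20.

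Of 15 calcium channel genes, 14 passed, 3 were higher and 4 lower (all genes tested: 5.01% and 8.18%), with a median log2 ratio of 0.02. Of the T-type genes, Cacna1i is given above, Cacna1h was at 64.8 against 16.9 CPM, and both were under 20 CPM in the matched neurons. The third T-type gene, Cacna1g, had 0 UMIs in members. Cacna2d3, an auxiliary subunit, was at 553 against 182 CPM (3.04, 2.79 to 3.32). The L-type gene Cacna1c was at 623 against 2933 CPM (0.212, 0.200 to 0.225) and the R-type gene Cacna1e at 41.8 against 176 CPM, with 47.5% of the Cacna1e UMIs in 1 member. Members of the main cluster had 165 CPM of Cacna1c and 3.32 CPM of Cacna1e.

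Of 16 sodium channel genes, 13 passed, 5 were higher and 2 lower (all genes tested: 5.01% and 8.18%), with a median log2 ratio of 0.24. The tetrodotoxin-sensitive genes Scn1a (2.73, 2.25 to 3.32), Scn3a (2.32) and Scn8a (2.16), Scn7a (2.16) and the channel-binding factor Fgf12 (2.64, 2.56 to 2.73) were higher. The nociceptor channels Scn10a and Scn11a were at 0.553 and 0.530, Scn9a at 1.18, and the factors Fgf13 (0.489) and Fgf14 (0.156) lower. Thinned to 1000 UMIs, and likewise with the excluded genes left out of the rule, 2 of the 13 were higher and 1 lower, and Scn3a, Scn7a, Scn8a and Fgf13 were no longer past 2-fold. Scn7a is also a nonmyelinating Schwann cell gene. In members it was at 659 CPM and was found in 129 of 142 nuclei.

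Of 27 mechanically gated and TRP channel genes, 14 passed, 2 were higher and 5 lower (all genes tested: 5.01% and 8.18%). The median log2 ratio was -0.61. Beside Piezo2, Asic2, an acid-sensing channel, was higher at 4769 against 2121 CPM (2.25, 2.19 to 2.31), and Mrgprd-type nuclei had 3238 CPM of it. The heat channels Trpv1 (70.6 against 346 CPM, 0.204) and Trpm3 (332 against 1576 CPM, 0.210) were lower, as were Kcnk10, Trpc6 and Kcnk2, although Trpc6 had a ratio of 1.16 when the excluded genes were left out of the rule. Trpv1 was found in 28 of 142 members and 36.3% of its UMIs came from 1 of them. Of its 135 UMIs, 104 came from members outside both clusters, and members of the main cluster had 8.62 CPM. For Trpm3, 341 of 634 UMIs came from the second cluster, and the main cluster's members had 81.6 CPM. Trpa1, the irritant receptor, had 12 UMIs in members, and Piezo1 had 1.

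**Figure D4:**
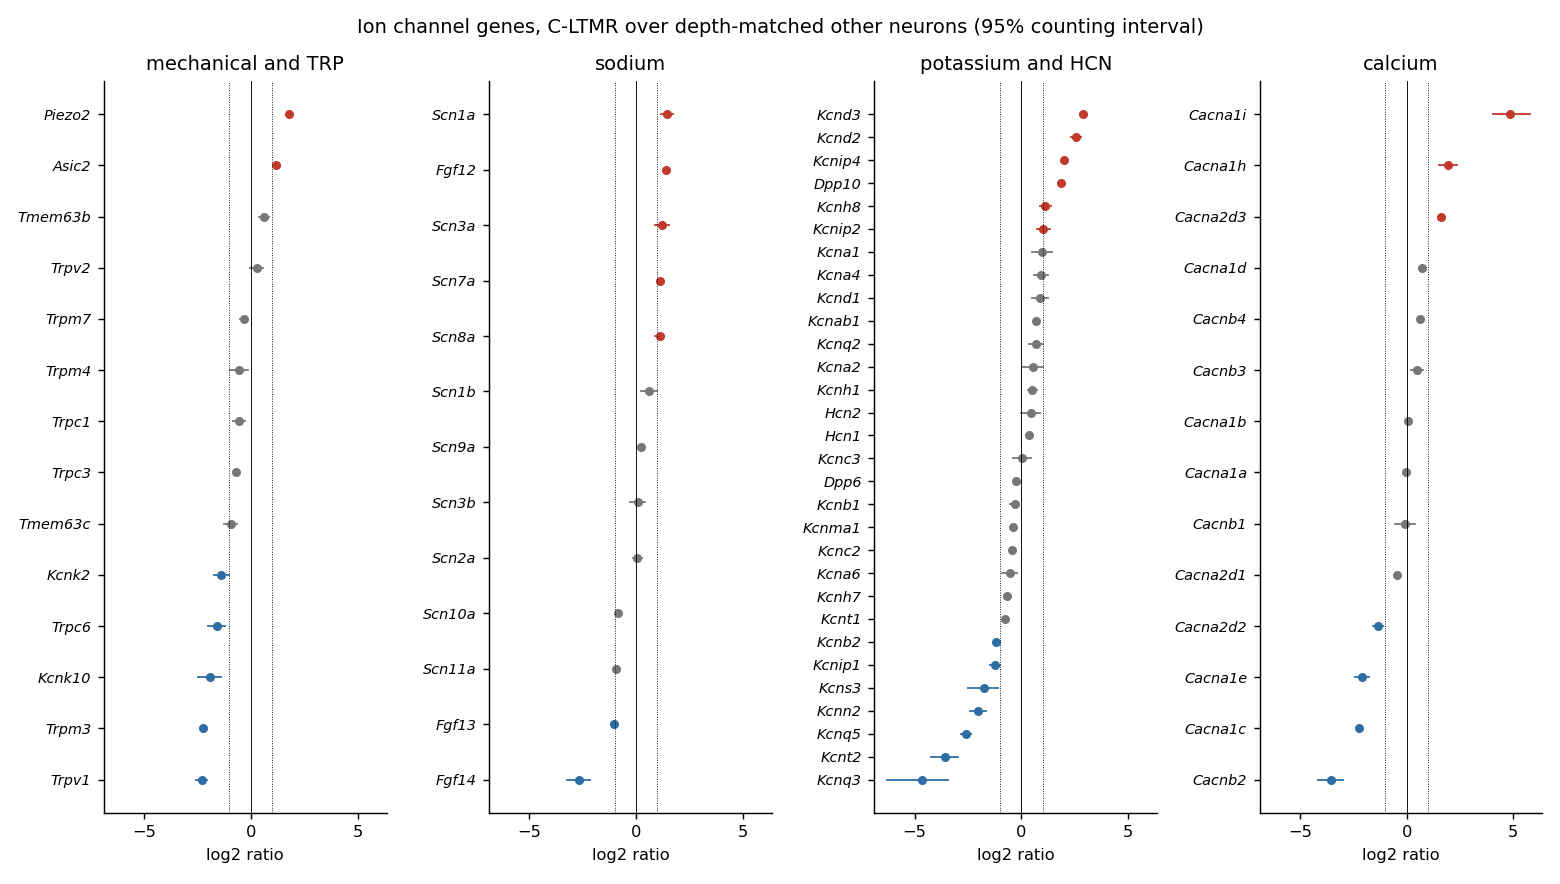
Log2 ratio of CPM in C-LTMR nuclei to depth-matched other neurons for each tested gene of 4 ion channel lists, with 95% counting intervals, red where at least 2-fold higher and blue where at least 2-fold lower (dotted lines). Piezo2, Scn1a, Kcnd3 and Cacna1i head their panels at 1.78, 1.45, 2.90 and 4.85.

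Semaphorin receptors were the study's question for these neurons. Class 3 semaphorins bind neuropilins (Nrp1, Nrp2), which signal through A-type plexins, with Nrcam, L1cam and Chl1 as co-receptors. Of 14 listed genes, 9 passed the level filter, 3 were higher and 3 lower (all genes tested: 5.01% and 8.18%), with a median log2 ratio of 0.26. With the excluded genes left out of the rule, 1 of the 9 was higher and none was lower, and Plxna4, Nrcam, Plxna2, Plxnc1 and Plxnd1 were no longer past 2-fold. Nrp1 was at 525 CPM in members and 79.9 CPM in matched neurons (6.57, 5.87 to 7.36), from 1003 UMIs in 102 of 142 members. Per nucleus it ranged from 0 to 32 UMIs with a median of 3, against 0 to 41 with a median of 0 in matched neurons.

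By class, Nrp1 was at 360 CPM in large-fibre-type, 82.4 CPM in peptidergic-type, 63.8 CPM in cold-type, 30.6 CPM in itch-type and 11.6 CPM in Mrgprd-type nuclei. Members were above each, by 1.46-fold (1.11 to 1.96) over the 23 large-fibre-type and by 45.3-fold (24.5 to 94.7) over the Mrgprd-type nuclei. Cold-type and peptidergic-type were neighbours whose intervals overlapped. Non-neuron nuclei had 210.1 CPM of Nrp1, and 100 of the 426 matched neurons had a UMI of it.

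Plxna4 was at 626 against 258 CPM (2.43, 2.25 to 2.63), and it was also highest in members among the classes, with peptidergic-type next at 487 CPM. In members of the main cluster Nrp1 reached 650.1 CPM and Plxna4 750 CPM, while the 21 members of the second cluster had 0 and 21.7 CPM. Plxna1 (28 UMIs) and Plxna3 (52 UMIs) stayed under the level filter with ratios of 2.71 and 2.61. Plxna2 went the other way at 86.8 against 194 CPM (0.448, 0.378 to 0.528).

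Nrp2 was at 44.4 CPM in members, 50.7 CPM in cold-type and 46.5 CPM in peptidergic-type nuclei, and these 3 levels did not differ beyond their intervals. Nrcam was at 123 against 57.4 CPM (2.15, 1.81 to 2.55), below the 183 CPM of large-fibre-type nuclei, whose interval overlapped. Plxnd1, the receptor of semaphorin 3E, was at 14.1 against 53.6 CPM (0.263, 0.171 to 0.391), whereas Sema3e itself was among the 15 highest ratios. Plxnc1, the semaphorin 7A receptor, was at 90.5 against 190.0 CPM. In members of the main cluster it was at 40.5 CPM, and in those of the second cluster at 379 CPM. With the excluded genes left out of the rule, which gives 219 members, the ratio of Plxnc1 was 1.15.

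**Figure D5:**
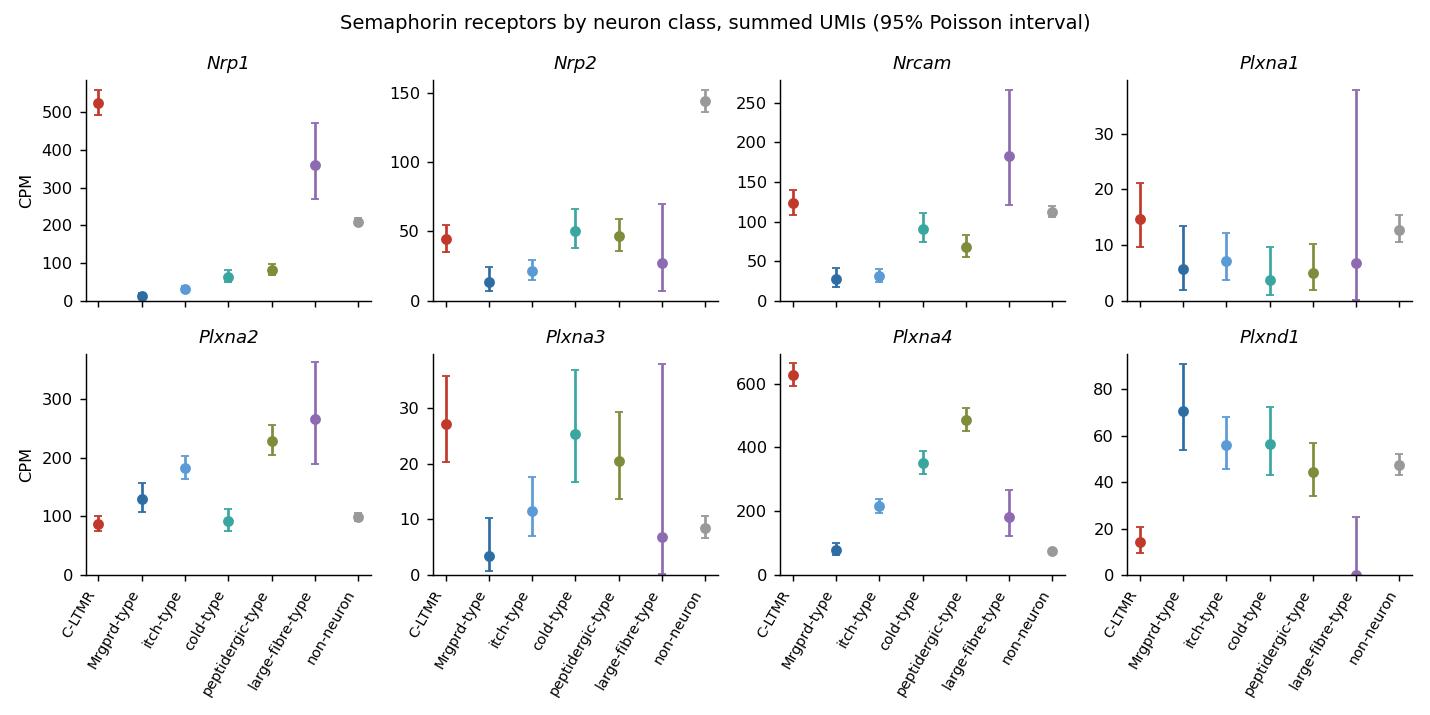
CPM of 8 semaphorin receptor and co-receptor genes in the 6 neuron classes and in non-neuron nuclei, with 95% Poisson intervals on axes from 0. Nrp1 (525 CPM) and Plxna4 (626 CPM) were highest in C-LTMR nuclei, whereas Plxnd1 (14.1 CPM) lay below 4 of the 5 other neuron classes.

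Of 20 semaphorin genes, 7 passed, 1 was higher (Sema3e) and 2 were lower, Sema5a (0.096) and Sema3c (0.443). Of 18 genes of semaphorin signal transduction, 14 passed, none was higher and 2 were lower, the actin-oxidising enzymes Mical1 (0.224, 0.157 to 0.310) and Mical3 (0.390, 0.325 to 0.465). Their median log2 ratio was -0.27, against -0.10 over all genes tested.

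Among 27 other guidance genes, 14 passed, 4 were higher and 6 lower (all genes tested: 5.01% and 8.18%), with a median log2 ratio of 0.32. The Slit receptor Robo1 was at 350 against 86.9 CPM (4.03, 3.58 to 4.54), although large-fibre-type nuclei had 502 CPM. The ligand Slit1 was at 218 against 64.2 CPM (3.39), Efnb2 at 33.5 against 7.56 CPM (4.43) and Efna5 at 528 against 228 CPM (2.32). The netrin receptors Dcc (0.052), Unc5d (0.084) and Unc5c (0.391), Slit2 (0.117) and the ephrin receptors Epha5 (0.215) and Epha6 (0.487) were lower. In Epha6, 63.9% of the members' UMIs came from 1 nucleus.

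Of 38 listed adhesion genes of the axon surface, 35 passed, 2 were higher and 12 lower, with a median log2 ratio of -0.23, where 5.01% of all genes tested were higher and 8.18% lower. Over all genes tested the median annotated span was 48.7 kb, against 89.2 kb for those higher and 138 kb for those lower. The part of gene length in these counts was not tested. Alcam (1099 against 360 CPM, 3.05) and the contactin Cntn3 (595 against 211 CPM, 2.81) were the higher ones. Lower were Cntnap2, the potassium channel-clustering protein of axons (1373 against 3421 CPM, 0.401), Nrg1, the Schwann cell growth factor (646 against 1427 CPM, 0.453), Cadm2 (0.257), Lgi1 (0.191) and Tenm1 (0.201), among others. In members of the main cluster Nrg1 was at 327 CPM, Cadm2 at 59.7 CPM and Tenm1 at 43.8 CPM. Among 23 cadherins 17 passed, Cdh10 (8.98) and Cdh4 (2.61) were higher, and Cdh12, Cdh13, Pcdh9 and Pcdh15 were lower. Cdh13 had a ratio of 1.12 when nuclei with 2 or more glial genes were left out.

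Of 16 receptor genes for growth factors, 13 passed, 2 were higher and 6 lower (all genes tested: 5.01% and 8.18%). The median log2 ratio was -0.76. Ntrk3, the neurotrophin-3 receptor, was at 518 against 154 CPM (3.36, 3.06 to 3.68). Large-fibre-type nuclei, which were chosen partly by Ntrk3, had 435 CPM, and the ratio of members to them was 1.19 (0.926 to 1.56). Gfra2 was the other. Among the lower ones were the artemin co-receptor Gfra3 (0.158), the GDNF co-receptor Gfra1 (0.211), Ntrk2, Kit and Osmr.

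Transcription factors of sensory neurons gave 31 tested of 44, 6 higher and 9 lower (all genes tested: 5.01% and 8.18%). The median log2 ratio was -0.47. Besides Pou4f2 and Zfp521, the zinc finger gene Casz1 (705 against 196 CPM, 3.59, 3.31 to 3.89), the homeobox gene Tlx3 (106 against 30.2 CPM, 3.51, 2.85 to 4.33), Zfhx3 (2.03) and Pou4f1 (2.02) were higher. Casz1 was at 459 CPM in Mrgprd-type nuclei and at most 129 CPM in the other classes. Bcl11a, Etv1, Creb5, Zeb2 (29.3 against 289 CPM) and Bcl11b had the lowest ratios, which ran from 0.045 to 0.115.

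No neuropeptide gene was higher. Of 16 listed, 4 passed the level filter and 3 were lower, Calca (78.4 against 162 CPM), Tac1 (47.6 against 109 CPM) and Adcyap1 (16.2 against 55.2 CPM), which are peptides of nociceptors. Of 41 inhibitory and modulatory receptor genes, 13 passed, Gabra2 was higher (494 against 163 CPM, 3.04) and Oprm1, Htr1f, Gabrg3 and Lpar3 were lower. With the excluded genes left out of the rule, the ratios of Lpar3 and Prkcq were 2.60 and 2.38, so their direction depends on the excluded genes of the rule.

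No tested gene of the peptidergic, itch-type, cold-type or Mrgprd-type marker lists was 2-fold higher in members. Of the peptidergic genes that passed, 8 of 9 were at least 2-fold lower, of the itch-type 4 of 4, of the cold-type 1 of 2 and of the Mrgprd-type 4 of 8. Over all genes tested, 8.18% were lower and 5.01% higher. The rule bars nuclei with an excluded gene from members but not from the matched set, so these counts are not independent of it. With the excluded genes left out of the rule, 5 of 9 tested Mrgprd-type genes were higher and 1 lower. The peptidergic, itch-type and cold-type lists then still had 8 of 9, 4 of 4 and 1 of 2 lower. The Mrgprd-type list summed to 8710 CPM in members and 6780 CPM in matched neurons, and gave members a mean of 8.31 of 1000 UMIs against 4.38 in other neurons, of which the kainate receptor gene Grik1 (7484 CPM in members, ratio 1.41) was the largest part. Of the large-fibre list, 6 of 15 passed, Ntrk3 and Scn1a were higher and Esrrg was lower.

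Genes listed for non-neuronal cells had UMIs in members, as in other neurons. Whether these UMIs came from other cells or from the neurons themselves was not tested. Of 1000 UMIs, satellite glia genes gave members a mean of 1.48, other neurons 2.79 and non-neuron nuclei 8.97, and Schwann cell genes gave 1.19, 1.20 and 3.89. None of the 4 satellite glia genes tested was 2-fold higher or lower. Of the Schwann cell list 5 of 10 passed, and Mbp (91.5 against 34.2 CPM), Pmp22 (189 against 85.3 CPM) and Scn7a were higher. Thinned to 1000 UMIs, 6 passed, none was higher and 2 were lower, and with the excluded genes left out of the rule none of 5 was past 2-fold. Rgs5, on the mural list, was at 50.2 against 10.6 CPM, while Pdgfrb was at 31.4 against 43.2 CPM. No endothelial, macrophage or cycling gene passed the level filter. Of the injury and stress list, 4 of 16 passed and Gap43 (36.1 against 152 CPM), Jun and Junb were lower.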

How the data were processed

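The ganglion library holds 5871 barcodes and 20845972 UMIs. The deposited values are raw UMI counts per gene and barcode, made by the authors with Cell Ranger 7.1.0, per the file headers. Seurat and the build mm9 are named in the submitters' processing notes, while 52081 of the 55357 gene identifiers matched GENCODE M21, so no gene coordinates from that annotation are printed. Whether counting used strand is not given in the sources used here, and genes that overlap others are uncertain.

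Nuclei with fewer than 1000 UMIs or more than 5% mitochondrial UMIs were dropped. UMIs were summed over nuclei and scaled to CPM. Each member was matched to 3 other neuron nuclei by depth. With 1 library no test was run. Ratios carry exact conditional 95% intervals, CPM exact Poisson and shares exact Clopper-Pearson intervals, and a gene was called at a ratio of 2. Genes needed a mean of 20 CPM and were not genes of the rule. Named were the 15 genes with the highest lower and the 15 with the lowest upper bounds, the rule genes, Nrp1, Nrp2, Plxna1 to Plxna4, and up to 5 at either end of each of 30 lists. Further list members given with values were chosen after their values were seen. The members and lists were chosen with earlier results of these data known. Doublets were not removed in the main values. Clusters came from scanpy 1.11.5 with igraph 0.11.9. Python 3.11.15, numpy 2.4.6, pandas 2.3.3, scipy 1.17.1 and matplotlib 3.10.9 were used, and the ratio script was tested on simulated data. Alternatives changed the rule, depth matching, doublets, the level filter, the scaling and the clustering resolution. The nerve libraries served only for shared barcodes, cell numbers and, at day 7, Xist. Some list genes are not reported here.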

Additional observations from a re-analysis of the deposited data

How the results depend on the processing

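With 1 library, values carry counting error only, and animals or libraries cannot be compared. No paired analysis was possible because the ganglion library has no replicate and no result comes from a test. The 142 members became 79 with 3 or more positive genes required, 219 without the excluded genes in the rule and 29 when nuclei with 2 or more glial genes were left out, which 113 members had. Genes at least 2-fold higher (331) numbered 618 with every nucleus thinned to 1000 UMIs, 635 without the nuclei with glial genes, 627 at a mean of 5 CPM and 3387 with no filter. Genes at least 2-fold lower (540) numbered 1153 thinned, 1302 at 5 CPM and 8892 with no filter. More or fewer genes or UMIs enter these alternatives by construction. The largest share of members in 1 cluster was 43.0% at resolution 2, in a cluster with a median of 19247 UMIs. A further 31.7% lay in a cluster with a median of 3481 UMIs, and both had Cacna1i and Adamts9 among their leading genes. Among positive genes measured in nuclei chosen by the other 3, the ratio was 5.80 for Th, 15.6 for Cdh9 and 18.2 for Tafa4 without the excluded genes in the rule, and 6.61 for Slc17a8 and 7.58 for Cdh9 without nuclei with glial genes. Ratios that changed direction were those of Trpc6 (1.16), Lpar3 (2.60), Plxnc1 (1.15) and Prkcq (2.38) without the excluded genes, Kcnh8 (0.547) when thinned, and Maf (2.96) and Cdh13 (1.12) without nuclei with glial genes. The cause was not tested. All 30 genes named by their bounds kept their direction and their 2-fold ratio in the 13 alternatives. Alternatives that changed only the level filter leave every ratio as it was and could not fail. The 30 genes were also picked from these same nuclei for their extreme bounds. Of all 145 named or listed genes past 2-fold, 120 stayed past it when thinned, 118 without the excluded genes, 121 without nuclei with glial genes and 140 to 145 in the others. Removing the 453 nuclei of the highest doublet scores took 8 members. Alternatives chosen after seeing the data gave 444 higher and 727 lower genes in members of the main cluster alone, and 368 and 625 without other neurons that had 2 or more positive genes.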
